A study of Rattus norvegicus with 6 samples.

Results

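The genes described here encode the machinery that shortens, decaps and degrades messenger RNA: the CCR4-NOT and PAN2-PAN3 deadenylases, the decapping enzymes with their activators and the Lsm ring, the exonucleases Xrn1 and Xrn2, the exosome, and the factors of nonsense-mediated decay. They were chosen by gene symbol among the protein-coding rows of the deposited table, taking the row with the highest mean level where a symbol occurred more than once, which gave 53 genes of 32623 in the table. The study sequenced RNA of heart muscle cells in primary culture, isolated from the ventricles of Sprague-Dawley rat pups aged 1 to 3 days. The siMettl3 group (3 libraries) had received a small interfering RNA against Mettl3 for 24 h, followed by lipopolysaccharide (LPS, a bacterial cell wall component that sets off inflammatory signalling) for 6 h. The siNC group (3 libraries) had received a control interfering RNA and the same LPS. All cells came from 1 isolate pooled from several animals, so p-values reflect only how far these samples differ among themselves, and that spread may be technical. Every library was treated with LPS, and no value here is a response to LPS.

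As background, decay of a cytoplasmic messenger RNA usually begins with the removal of its poly(A) tail by PAN2-PAN3 and CCR4-NOT. The message is then either decapped by Dcp2 and digested from the front by Xrn1, or digested from the tail by the exosome. N6-methyladenosine (m6A), the mark that Mettl3 writes, feeds into this pathway through the reader Ythdf2, which recruits CCR4-NOT through its scaffold Cnot1. Nonsense-mediated decay uses the helicase Upf1 to send messages with premature stop codons into the same pathway.

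Of the 53 genes 2 passed the threshold and both fell: the deadenylase Cnot8 and the decapping enzyme Dcp2. The call on Cnot8 held whichever library was left out, whereas that on Dcp2 did not. The 2 genes are 3.77% of the 53, where 9.98% of all 13105 tested genes were called (3.39% higher and 6.59% lower). All 53 had a mean of at least 1 FPKM (fragments per kilobase of transcript, scaled to library size), the level required for testing, so no member is missing from these counts. The test was edgeR's quasi-likelihood test on the deposited counts with Benjamini-Hochberg adjustment over all tested genes and a threshold of 0.05. At an unadjusted p under 0.05, 6 members were higher and 4 lower, or 18.9% of the 53 against 27.6% of all tested genes. DESeq2 called 6 members (Cnot8 and Dcp2 lower; Dcp1a, Edc3, Smg5 and Smg8 higher) where it called 18.3% of all genes (7.71% higher, 10.6% lower). limma on log2(FPKM + 1) called 3 (Cnot8 lower; Edc3 and Smg5 higher) where it called 10.9% (6.53% higher, 4.4% lower). The members' median log2 fold change was 0.025, beside 0.003 over all tested genes, and their median absolute change was 0.109, beside 0.151. A log2 fold change under 0.3 in size was found for 47 members (88.7%), against 77.3% of all tested genes.

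**Figure D1:**
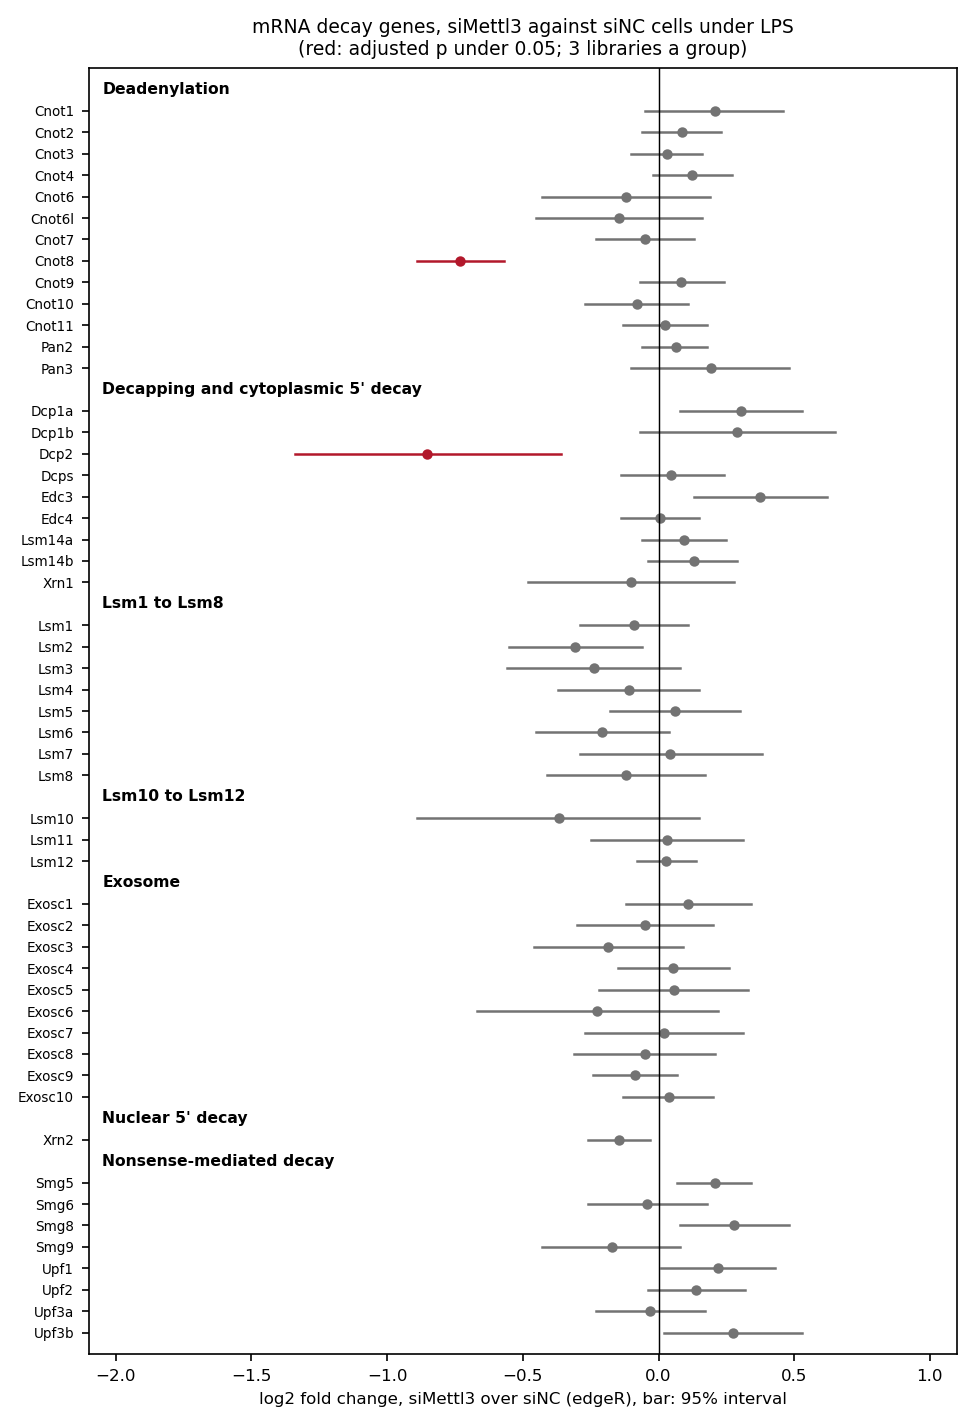
Log2 fold change of 52 of the genes, siMettl3 over siNC, by edgeR on the counts of 3 libraries a group, with the 95% interval as a bar and the genes grouped by role. Cnot8 (-0.73) and Dcp2 (-0.85), in red, are the genes with an adjusted p under 0.05, and all others lie between -0.37 and 0.37.

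The libraries held 71202469 to 76668751 counts each. Replicates compared pair by pair gave a chi-square of 22.1 to 63.1 for each degree of freedom, a spread wider than counting error alone. That value belongs to a pair of libraries and does not describe single genes. In siMettl3 the replicate counts of Lsm5 (657, 670 and 646) and Exosc3 (322, 323 and 301) lay close together. For such members counting error need not be small beside the spread. Mettl3 itself measured 10.3, 10.6 and 9.90 FPKM in siMettl3 cells, against 18.2, 17.2 and 15.3 FPKM in siNC cells, a log2 fold change of -0.80 (SE 0.079, edgeR adjusted p = 0.00293). Cardiomyocyte markers were abundant, with a summed level of 12916 to 14617 FPKM in siMettl3 and 14113 to 15638 FPKM in siNC over 9 genes, of which 2 (Myh7 and Actc1) fell. Markers of other cells moved with the groups as well: 7 of 9 fibroblast markers fell (summed 909 to 968 FPKM in siMettl3, 1490 to 1559 in siNC), as did 6 of 6 tested macrophage markers of 10 found (37.1 to 48.8 and 72.3 to 89.7 FPKM) and 4 of 8 smooth muscle and pericyte markers (2520 to 2725 and 3738 to 4235 FPKM), siMettl3 given before siNC. Of 4 tested endothelial markers of 7 found, 2 rose and 1 fell (summed 17.7 to 19.1 and 15.4 to 17.8 FPKM). Of 3 tested epicardial markers of 5 found 1 fell (15 to 18.6 and 13.9 to 15.4 FPKM), and of 5 cycling-cell markers 1 fell (241 to 248 and 249 to 256 FPKM). No marker was at 0 in all libraries. Fewer cells of a type and less RNA per cell cannot be told apart in such bulk samples, and the part of these shifts in the results below was not tested.

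Cnot8 had the smallest adjusted p of the 53. With its paralogue Cnot7 it encodes the CAF1-type catalytic subunit of CCR4-NOT, an exonuclease that removes adenosines from the tail. It measured 19.3, 17.1 and 18.7 FPKM in the siMettl3 libraries, against 29.9, 29.1 and 27.9 FPKM in the siNC libraries. The highest siMettl3 library lay well below the lowest siNC library. The log2 fold change was -0.73 (SE 0.0666, 95% interval -0.89 to -0.57, edgeR adjusted p = 0.00258), and the mean FPKM was 63.5% of that in siNC cells. With 1 library left out the adjusted p was 0.00728 to 0.0222, and limma and DESeq2 called the gene as well (log2 fold changes -0.63 on the log2(FPKM + 1) scale and -0.73). The table places Cnot8 (ENSRNOG00000002630) on the plus strand of chromosome 10, from 43538160 to 43551271, with no genome build stated, and lists no gene that overlaps it.

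Cnot7, the other CAF1-type subunit, was not called. It measured 20.9, 19.5 and 19.0 FPKM in siMettl3, against 19.5, 17.9 and 21.0 FPKM in siNC, and the groups overlapped (log2 fold change -0.05, 95% interval -0.23 to 0.13, adjusted p = 0.725). Per length Cnot8 was below Cnot7 in every siMettl3 library and above it in every siNC library. Cnot8 made up 48.1%, 46.7% and 49.6% of the summed FPKM of the pair in the siMettl3 libraries, against 60.5%, 62.0% and 57.1% in the siNC libraries. The summed level of both was 38.2 ± 1.80 FPKM in siMettl3 and 48.4 ± 1.28 FPKM in siNC (SD, n = 3).

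The log2 ratio of Cnot8 to Cnot7 was -0.11 ± 0.0839 in siMettl3 and 0.58 ± 0.151 in siNC, a difference of -0.69. An exact 2-sided permutation test gave p = 0.1, the smallest that 3 against 3 libraries allow (0.5 adjusted over the 5 paralogue pairs compared). The Cnot8 pair was examined because its fall had been seen, so this ratio describes the libraries. In the other pairs the shares overlapped between the groups. Cnot6 made up 77.1 ± 1.22% of its pair with Cnot6l in siMettl3 and 76.7 ± 0.957% in siNC, and Dcp1a made up 78.0 ± 4.0% and 77.9 ± 2.64% of its pair with Dcp1b. Lsm14a made up 61.2 ± 1.36% and 61.8 ± 1.71% of its pair with Lsm14b. Upf3b made up 23.1 ± 1.19% and 19.6 ± 3.27% of its pair with Upf3a, with exact permutation p = 0.2.

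**Figure D2:**
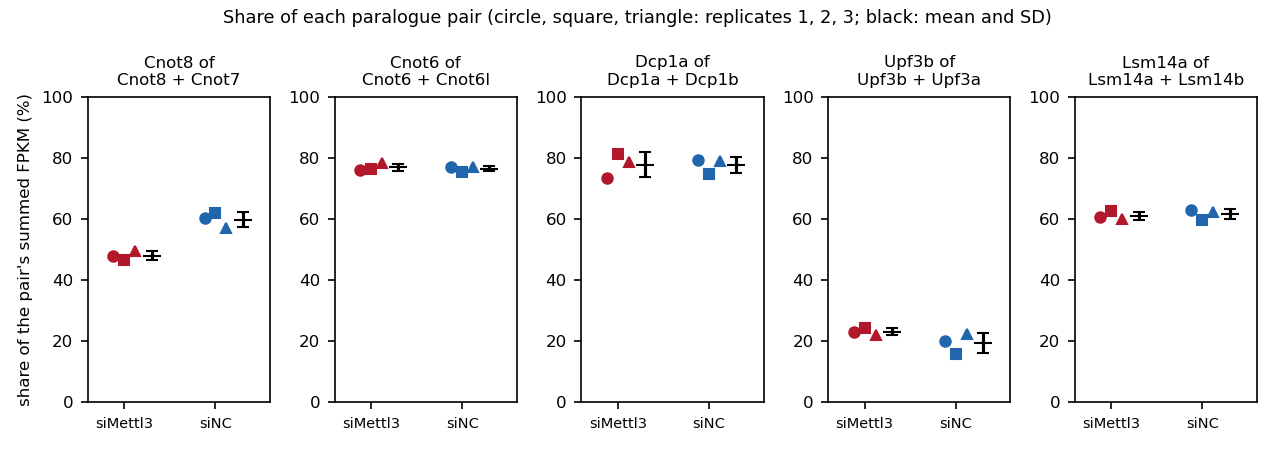
Share of the first-named paralogue in the summed FPKM of its pair, in percent, for each library (siMettl3 red, siNC blue; circle, square and triangle for replicates 1, 2 and 3; black, mean and SD). Cnot8 lies at 46.7% to 49.6% in siMettl3 and 57.1% to 62.0% in siNC; the shares of the other 4 pairs overlap.

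Of the 11 CCR4-NOT subunits Cnot8 alone passed the test (9.09%), a share near the 9.98% of all tested genes. The scaffold Cnot1, on which the complex is built, measured 28.7, 34.7 and 27.7 FPKM in siMettl3, against 24.4, 22.6 and 27.8 FPKM in siNC (log2 fold change 0.21, SE 0.108, adjusted p = 0.263). The ranges overlapped through the lowest siMettl3 library and the highest siNC library. The CCR4-type nuclease subunits, which work beside the CAF1-type ones, showed no difference beyond the spread. Cnot6 measured 22.4, 26.7 and 23.1 FPKM in siMettl3, against 24.5, 20.6 and 29.3 FPKM in siNC (-0.12, SE 0.133, adjusted p = 0.598). Cnot6l measured 6.94, 8.22 and 6.34 FPKM in siMettl3, against 7.23, 6.68 and 8.66 FPKM in siNC (-0.15, SE 0.130, adjusted p = 0.505). A pseudogene row of 8.48 ± 1.39 FPKM in siMettl3 and 9.41 ± 1.01 FPKM in siNC overlaps Cnot6 on the same strand by 262 bases, so its counts are less certain.

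Cnot2 and Cnot3 belong to the NOT module, and Cnot9 binds RNA-binding adaptor proteins. With the N-terminal partners Cnot10 and Cnot11 and the ubiquitin ligase Cnot4, they had log2 fold changes from -0.08 (Cnot10) to 0.13 (Cnot4). Cnot4 was higher in all siMettl3 libraries (9.49, 10.4 and 9.89 FPKM) than in any siNC library (8.49, 8.82 and 8.57 FPKM) and had an adjusted p = 0.251. The other deadenylase is the nuclease Pan2 with its RNA-binding partner Pan3. Pan2 measured 13.7, 13.8 and 13.8 FPKM in siMettl3, against 12.7, 12.1 and 12.8 FPKM in siNC (0.06, SE 0.0509, adjusted p = 0.457). Pan3 measured 6.00, 7.43 and 6.29 FPKM in siMettl3, against 5.07, 5.11 and 6.20 FPKM in siNC (0.19, SE 0.122, adjusted p = 0.35). The Pan2 libraries were separate by group and those of Pan3 overlapped.

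In the decapping group 1 of 9 genes passed (11.1%, near the 9.98% of all tested genes), the catalytic subunit Dcp2. Over the 6 libraries together Dcp2 had the lowest mean level of the 53 (2.44 FPKM), whereas in siNC cells alone Dcp1b and Exosc6 were lower. Dcp2 removes the cap and exposes the message to Xrn1. It measured 1.94, 2.04 and 1.41 FPKM (422, 447 and 301 counts) in siMettl3, against 3.06, 2.40 and 3.80 FPKM (691, 527 and 794 counts) in siNC. All siMettl3 libraries were below all siNC libraries, but the siNC libraries spread widely. The log2 fold change was -0.85 (SE 0.208, 95% interval -1.34 to -0.36, edgeR adjusted p = 0.047), and 58.2% of the mean siNC FPKM remained.

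Several measurements limit that call. The adjusted p was 0.114, 0.083 and 0.107 without siMettl3 replicates 1, 2 and 3 and 0.129 and 0.0846 without siNC replicates 1 and 3. Without siNC replicate 2 it was 0.0444. limma gave -0.54 on the log2(FPKM + 1) scale (adjusted p = 0.0663) and DESeq2 called the gene (-0.85). A further row, LOC100909830, is described in the table as similar to the decapping enzyme and could share reads with Dcp2. It had 114, 182 and 0 counts in siMettl3, against 21, 0 and 337 counts in siNC. With both rows summed, chosen after seeing the data, the counts were 536, 629 and 301 in siMettl3, against 712, 527 and 1131 in siNC, the groups overlapped, and the log2 fold change was -0.77 (SE 0.355, adjusted p = 0.212). The table places Dcp2 (ENSRNOG00000045895) on the plus strand of chromosome 18, from 35489274 to 35672291, a span that also holds Myot, listed with a count of 0 in every library. LOC100909830 lies on the other strand of that chromosome, from 78584312 to 78607983.

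The coactivators of Dcp2 had fold changes above 0, none of them called by edgeR. Dcp1a, its main coactivator, measured 10.6, 13.0 and 11.3 FPKM in siMettl3, against 8.69, 8.30 and 9.79 FPKM in siNC, and the groups did not overlap (0.30, SE 0.0949, edgeR adjusted p = 0.0887). Edc3, an enhancer of decapping, measured 8.09, 9.20 and 7.96 FPKM in siMettl3, against 6.34, 6.63 and 5.52 FPKM in siNC, also without overlap (0.37, SE 0.105, edgeR adjusted p = 0.0683). Edc3 passed with limma (adjusted p = 0.0372) and DESeq2 (0.0123), and Dcp1a with DESeq2 (0.028). On the limma scale, FPKM without TMM scaling, the median log2 fold change of all tested genes was 0.067, against 0.003 in edgeR. The scaffold Edc4, which joins Dcp1 and Dcp2, had the smallest change of the group: it measured 12.8, 13.9 and 14.5 FPKM in siMettl3, against 13.5, 12.5 and 13.0 FPKM in siNC (0.005, 95% interval -0.14 to 0.15, adjusted p = 0.972).

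Dcp1b, the paralogue of Dcp1a, averaged 3.26 ± 0.474 FPKM in siMettl3 and 2.53 ± 0.278 FPKM in siNC (SD, n = 3), with adjusted p = 0.265. Dcps, which clears the cap left after decay from the tail, measured 24.8, 23.3 and 26.4 FPKM in siMettl3, against 24.6, 22.5 and 21.4 FPKM in siNC (0.05, SE 0.0797, adjusted p = 0.739). The P-body proteins Lsm14a (0.09, adjusted p = 0.402) and Lsm14b (0.13, adjusted p = 0.280), which repress translation, were not called. Xrn1, the cytoplasmic exonuclease that digests decapped messages, measured 8.83, 10.9 and 8.72 FPKM in siMettl3, against 8.95, 8.0 and 12 FPKM in siNC (-0.10, SE 0.162, adjusted p = 0.721). Its spread was wide in both groups, with the highest values in siMettl3 replicate 2 and siNC replicate 3.

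Its nuclear relative Xrn2, which degrades RNA behind terminating polymerase, measured 37.1, 39.1 and 39.6 FPKM in siMettl3, against 41.0, 39.4 and 41.2 FPKM in siNC. In FPKM the groups overlapped slightly. With the counts scaled as in the edgeR fit, all siMettl3 libraries were below all siNC libraries. The log2 fold change of -0.15 (SE 0.0491) had edgeR adjusted p = 0.106.

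**Figure D3:**
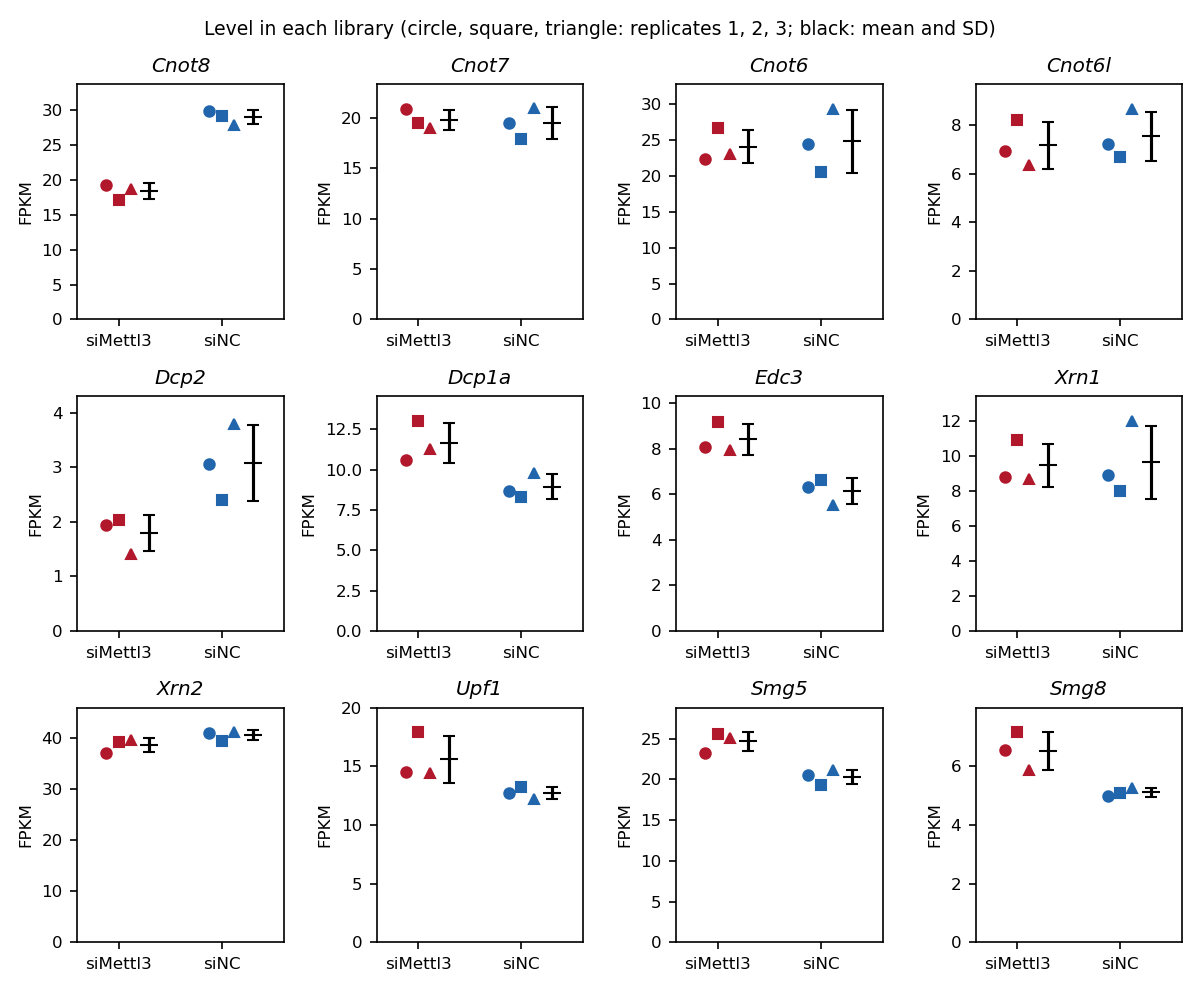
FPKM of 12 of the genes in each library (siMettl3 red, left; siNC blue, right; circle, square and triangle for replicates 1, 2 and 3; black, mean and SD; axes start at 0). Cnot8 and Dcp2 are lower in all siMettl3 libraries, and Cnot7, Cnot6, Cnot6l and Xrn1 overlap between the groups. Dcp1a, Edc3, Upf1, Smg5 and Smg8 are higher in all siMettl3 libraries without passing edgeR's threshold. In FPKM, 26.4% of all tested genes were higher in all siMettl3 libraries and 11.5% were lower in all.

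The Lsm proteins form ring-shaped assemblies: Lsm1 to Lsm7 bind the ends of deadenylated messages and promote decapping, and Lsm2 to Lsm8 bind U6 RNA in the nucleus. By edgeR 0 of these 8 genes passed, 1 (Lsm2) had an unadjusted p under 0.05, and DESeq2 and limma called 0. Lsm1, the subunit that makes the ring cytoplasmic, measured 15.1, 15.3 and 16.4 FPKM in siMettl3, against 17.1, 15.8 and 14.4 FPKM in siNC (-0.09, SE 0.0834, adjusted p = 0.521). Lsm2, shared by both rings, measured 19.8, 22.0 and 21.0 FPKM in siMettl3, against 25.3, 27.3 and 21.1 FPKM in siNC (-0.31, SE 0.103, adjusted p = 0.106). A protein-coding row with a mean of 0.064 FPKM overlaps Lsm2 on the same strand by 3752 bases, so its counts are less certain. Lsm2 was called without siNC replicate 3 (-0.41, adjusted p = 0.0394). With the offset for transcript length described below, its change was -0.21 and it was not called (edgeR adjusted p = 0.198). Lsm8, which makes the ring nuclear, averaged 31.0 ± 4.82 FPKM in siMettl3 and 32.0 ± 2.41 FPKM in siNC. Lsm3, Lsm4 and Lsm6 had log2 fold changes from -0.24 to -0.11, and Lsm5 and Lsm7 of 0.06 and 0.04. The ring had a median level of 27.1 FPKM, against 14.1 FPKM over all 53, and its highest member was Lsm4 (60.3 FPKM).

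Of the remaining Lsm genes, Lsm10 and Lsm11 belong to the U7 particle that processes histone messages, and Lsm12 is a related RNA-binding protein. By edgeR, DESeq2 and limma 0 of these 3 passed, and 0 had an unadjusted p under 0.05. Lsm10 had the widest spread of the 53 (SE 0.222), at 6.43, 4.55 and 8.31 FPKM in siMettl3, against 8.89, 7.91 and 6.88 FPKM in siNC (-0.37, adjusted p = 0.325).

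The exosome is a barrel-shaped complex that threads RNA to its nucleases. By edgeR, DESeq2 and limma 0 of its 10 genes passed, and 0 had an unadjusted p under 0.05 by edgeR. Their log2 fold changes ran from -0.23 (Exosc6) to 0.11 (Exosc1), 5 above 0 and 5 below. Exosc10, a nuclease of the nuclear exosome, measured 19.1, 20.6 and 18.7 FPKM in siMettl3, against 19.7, 17.3 and 17.1 FPKM in siNC (0.04, SE 0.0711, 95% interval -0.13 to 0.20, adjusted p = 0.775). Exosc3, a cap subunit that contacts RNA, measured 4.89, 4.89 and 4.68 FPKM in siMettl3, against 4.88, 5.44 and 5.28 FPKM in siNC (-0.19, SE 0.116, adjusted p = 0.342). The messages of the barrel differed in level by far more than any of them differed between groups, with means over the 6 libraries from 2.51 FPKM (Exosc6) to 23.4 FPKM (Exosc9). Exosc9 overlaps Ccna2 and Bbs7 on the other strand, and the use of strand in counting is not given in the sources used here, so its level is uncertain. The same holds for Exosc8, which overlaps Supt20h, and for Cnot3, which overlaps Leng1.

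Among the 9 nonsense-mediated decay genes 0 passed by edgeR, while 4, all of them higher in siMettl3, had an unadjusted p under 0.05 (Smg5, Smg8, Upf1 and Upf3b). Over all 13105 tested genes 3611 (27.6%) were under that p, 1640 of them higher. DESeq2 called 2 of the 9 (Smg5 and Smg8), where it called 18.3% of all genes. limma called 1 (Smg5), where it called 10.9% of all genes. Upf1, the central helicase, measured 14.5, 17.9 and 14.4 FPKM in siMettl3, against 12.7, 13.2 and 12.2 FPKM in siNC (0.22, SE 0.0898, adjusted p = 0.165). Upf2, which links Upf1 to the exon junction complex, measured 9.82, 11.1 and 9.54 FPKM in siMettl3, against 8.46, 8.59 and 9.23 FPKM in siNC (0.14, SE 0.0762, adjusted p = 0.288). Upf3b, which binds that complex directly, measured 5.32, 5.63 and 5.53 FPKM in siMettl3, against 4.69, 3.57 and 4.67 FPKM in siNC (0.28, SE 0.110, adjusted p = 0.158). In FPKM the groups of these genes did not overlap, and siMettl3 replicate 2 was the highest library of each. With the counts scaled as in the edgeR fit, the groups of Upf2 overlapped. The paralogue Upf3a had a log2 fold change of -0.03 (adjusted p = 0.841).

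Smg5, an adaptor that binds phosphorylated Upf1, measured 23.3, 25.6 and 25.1 FPKM in siMettl3, against 20.5, 19.3 and 21.1 FPKM in siNC (0.21, SE 0.0585, edgeR adjusted p = 0.0697). Smg8, a regulator of the kinase Smg1, measured 6.53, 7.13 and 5.86 FPKM in siMettl3, against 4.96, 5.07 and 5.25 FPKM in siNC (0.28, SE 0.0839, edgeR adjusted p = 0.0817). Both sets of libraries were separate, with Smg5 passing in limma (adjusted p = 0.0378) and both in DESeq2 (0.0306 and 0.0373). The median log2 fold change of all tested genes was 0.067 on the limma scale. With the length offset described below edgeR called neither Smg5 nor Smg8 (adjusted p = 0.0879 and 0.0544). Smg6, the endonuclease of the pathway, measured 4.83, 5.40 and 4.82 FPKM in siMettl3, against 5.53, 4.59 and 4.61 FPKM in siNC (-0.04, SE 0.0924, adjusted p = 0.801). A row described as a Smg6 pseudogene (2.53 ± 0.616 and 1.93 ± 0.289 FPKM) could share its reads. Smg9, the partner of Smg8, had a log2 fold change of -0.17 (adjusted p = 0.345). The kinase Smg1 itself is annotated as a processed transcript in the table and is not among the 53. It measured 6.70, 10.3 and 6.81 FPKM in siMettl3, against 5.45, 3.96 and 8.01 FPKM in siNC (0.38, SE 0.272, adjusted p = 0.410).

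A p above the threshold does not show that a gene was unchanged, and the intervals give the sizes these libraries leave possible. For 47 of the 51 genes without a call the 95% interval of the fold change lay within 1.5-fold in both directions, and for all 51 within 2-fold. The 4 with wider intervals were Lsm10 (-0.89 to 0.15), Exosc6 (-0.67 to 0.22), Dcp1b (-0.07 to 0.65) and Edc3 (0.13 to 0.62, log2 each). Of all 13105 tested genes, called or not, the interval lay within 1.5-fold for 9474 and within 2-fold for 11986. In FPKM, 17 members (32.1%) were higher in all siMettl3 libraries than in any siNC library and 2 (3.77%) were lower in all, against 26.4% and 11.5% of all tested genes (37.9% in all). With the counts scaled by the trimmed mean of M values (TMM), as in the edgeR fit, 9 members (17.0%) were higher in all. The 5 lower in all (9.43%) were Cnot8, Dcp2, Exosc3, Lsm2 and Xrn2. Over all tested genes the shares were 15.8% and 18.1% (33.9% in all). The share of members on either side thus depends on the scaling. The median log2 fold change of all tested genes was 0.067 on the log2(FPKM + 1) scale and 0.003 in edgeR.

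Differences among the members varied with transcript length and between single libraries. Effective length, taken from the ratio of counts to FPKM, ran from 502 nucleotides (Lsm7) to 7937 (Cnot1). Over the 53 genes the deviation of a library from the mean of all 6 (log2 of scaled counts, TMM) rose with length in siMettl3 replicate 2 (Spearman rho = 0.62) and fell with length in siNC replicate 2 (rho = -0.58). In siMettl3 replicates 1 and 3 rho was 0.07 and -0.39, and in siNC replicates 1 and 3 it was -0.29 and 0.25. Over all tested genes with a length rho was 0.41 in siMettl3 replicate 2 and -0.38 in siNC replicate 2. Genes are not independent replicates, and these coefficients are descriptions.

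**Figure D4:**
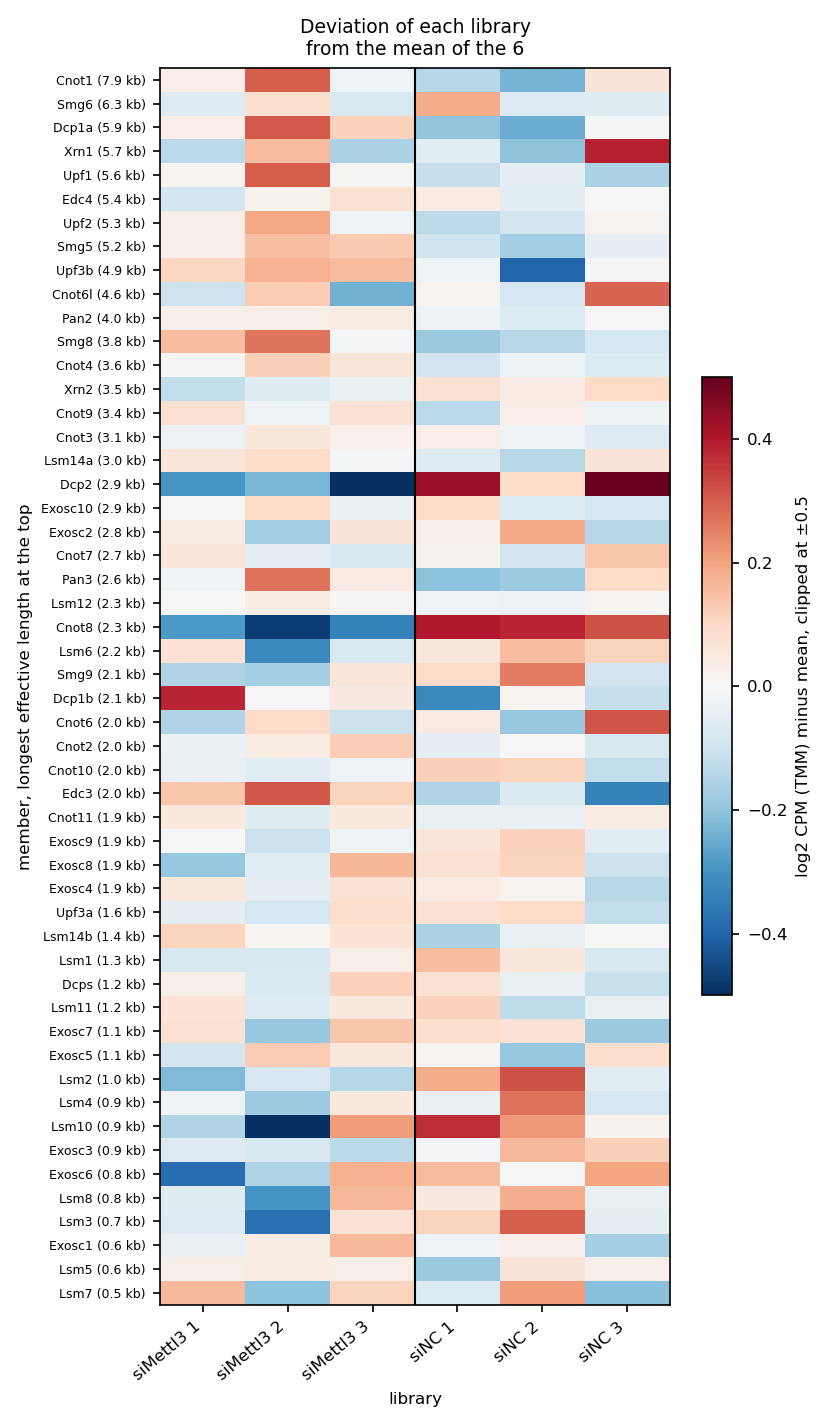
Deviation of each library from the mean of the 6 libraries (log2 of scaled counts, TMM scaling, colour clipped at the ends of the scale) for 52 of the genes, ordered from the longest effective length at the top to the shortest. Cnot8 and Dcp2 are low in the 3 siMettl3 columns and high in the siNC columns, while siMettl3 replicate 2 runs from high values at the top to low values at the bottom (rho = 0.62) and siNC replicate 2 the other way (rho = -0.58).

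The fold changes followed length as well. Over the 53 genes rho between effective length and log2 fold change was 0.31, against 0.24 over 13042 tested genes. The 17 longest members (3055 nucleotides or more) had a median log2 fold change of 0.08 and the 17 shortest (1565 or fewer) of -0.03. Over the members rho was 0.11 without siMettl3 replicate 2, 0.16 without siNC replicate 2 and 0.44 without siNC replicate 3. After an offset that removes each library's trend with length it was -0.06, and the medians were 0.06 and 0.02. With that offset edgeR called 6 members, where it called 16.4% of all tested genes (6.05% higher, 10.3% lower). Among them Cnot8 (-0.72, adjusted p = 6.62e-04), Dcp2 (-0.86, 0.0269) and Xrn2 (-0.17, 0.0278) were lower, and Dcp1a (0.21, 0.0298) and Edc3 (0.40, 0.0365) were higher. Cnot8 and Dcp2 are of middle length, and their changes were nearly the same with the offset. The log2 fold changes of Cnot1 (0.08), Upf1 (0.13), Upf2 (0.06) and Smg5 (0.13) were smaller with it than without.

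**Figure D5:**
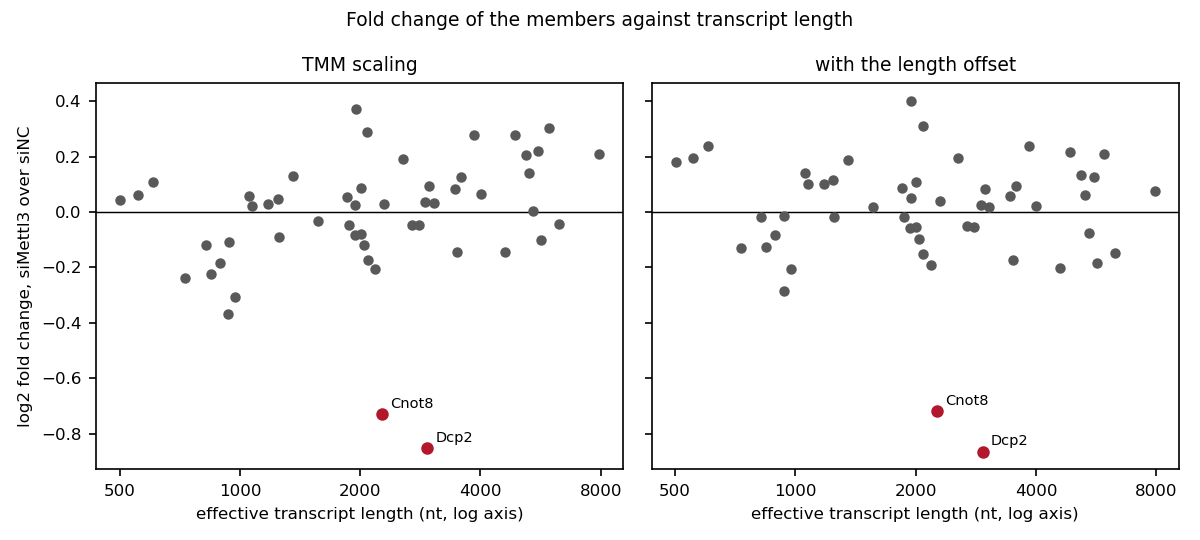
Log2 fold change of 52 of the genes, siMettl3 over siNC, against effective transcript length in nucleotides (log axis), with TMM scaling on the left and with the length offset on the right. Cnot8 and Dcp2 (red) stay at -0.72 or lower in both. Over all 53 rho is 0.31 on the left and -0.06 on the right, where the offset removes the slope by design.

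Genes that work with this machinery but lie outside the symbol rule gave a similar picture. Of 64 such genes, all of them tested, 1 passed by edgeR (1.56%, against 9.98% of all tested genes). An unadjusted p under 0.05 was found for 10 (15.6%, against 27.6% of all tested genes). The gene that passed was Eri1, an exonuclease that trims histone messages and small RNAs, at 11.4, 12.9 and 13.9 FPKM in siMettl3, against 15.1, 16 and 17 FPKM in siNC (-0.41, SE 0.0885, edgeR adjusted p = 0.033). The groups did not overlap, yet the call was lost in 5 of the 6 fits with 1 library left out. Among 18 exosome nucleases and cofactors it was the single call; the core nuclease Dis3 (0.04, adjusted p = 0.773) and the helicase Mtrex (-0.02, adjusted p = 0.878) did not pass. By edgeR 0 passed of the CCR4-NOT partners (15 genes), decapping partners (10), nonsense-mediated decay partners (14) and m6A decay adaptors (7). At an unadjusted p under 0.05 were 4, 0, 2 and 1 of them (26.7%, 0%, 14.3% and 14.3%), against 27.6% of all tested genes. DESeq2 called Ago2, Tent4b and Tnrc6c higher and Eri1 and Tent4a lower, 5 of 64 where it called 18.3% of all genes. limma called Casc3, Gspt1 and Rpp25 higher, 3 of 64 where it called 10.9% of all genes. Ythdf2, the reader that brings CCR4-NOT to m6A, measured 23, 25 and 20.8 FPKM in siMettl3, against 19.6, 20.1 and 20.4 FPKM in siNC (0.12, SE 0.0766, adjusted p = 0.357).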

How the data were processed

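RNA was sequenced in 3 siMettl3 and 3 siNC libraries. The authors deposited 1 table with a count and an FPKM value per gene and library, with Ensembl rat gene identifiers; the aligner, counter and genome build are not given in the sources used here. The submitters' processing notes name Bowtie 0.12.2 and mm8 without a role. The deposited FPKM are 0.0001 exactly where the count is 0. Scaled by library, the ratio of count to FPKM was constant per gene to within 1% for 98.7% of values. Either measure could have been computed from the other with a fixed length, so whether the counts were derived from FPKM is unknown. The main test was edgeR's quasi-likelihood test with TMM scaling on genes whose FPKM averaged 1 or more. The standard error is the log2 fold change divided by the root of the F statistic. DESeq2, limma on log2(FPKM + 1), other filters and scalings, an offset for length and left-out libraries were alternatives. Data were simulated for this comparison with 13105 genes, 100 of them changed by log2 0.5 and 100 by log2 1. The edgeR step recovered 29% and 78% of these changes. Fewer genes changed there than the 1308 called in the real data, which makes the adjusted threshold stricter. The recovered shares therefore need not hold for the members. The members, role groups, partner and marker lists were chosen with earlier results of these data known. Genes given in full were those called by edgeR and a fixed panel of catalytic subunits and scaffolds; Edc3, Smg5, Smg8, Lsm2, Lsm10, Cnot4 and the paralogue pairs were chosen after their values were seen. Versions were R 4.3.3, edgeR 4.0.16, DESeq2 1.42.0, limma 3.58.1 and scipy 1.17.1. The values of 1 member are included in the counts and medians but are not reported here.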

Additional observations from a re-analysis of the deposited data

How the results depend on the processing

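The number of members called was 2 by edgeR with TMM or RLE scaling and 3 by limma with either pseudocount. It was 6 by DESeq2, 6 with the length offset, 1 without a filter on low values, 1 with filterByExpr, 1 with the Dcp2-like row summed with Dcp2 and 1 to 2 with 1 library left out. Dcp2 had an adjusted p of 0.0622 without a filter. Of the 64 partner genes, 1 by edgeR, the calls were 5 by DESeq2, 3 by limma with either pseudocount, 5 with the length offset and 0 to 2 with 1 library left out. Over all tested genes 1308 were called (444 higher, 864 lower), 2394 by DESeq2, 2148 with the length offset and 344 to 1066 with 1 library left out. Without a filter 981 of 21272 genes were called, and with filterByExpr 1205 of 16544. limma turned the split round (856 higher, 576 lower). The members' median log2 fold change of 0.025 was 0.089 by limma and 0.099 with a pseudocount of 0.1, where that of all genes was 0.067 and 0.077, and 0.001 to 0.020 with 1 library left out.

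Same-numbered libraries did not deviate together (correlations 0.026, -0.206 and -0.024), and no library matched best with its own number. Blocking on the replicate number, a paired fit, left 64 calls over all genes, 0 members and 0 partners, with adjusted p = 0.0535 for Cnot8 and 0.189 for Dcp2. The labels give no pairing by number, and these correlations cannot exclude one.

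Over 53 members and 15 alternatives, 732 of 795 values kept direction and side of the threshold and 38 changed sign, none of them called under either setting. The changes of sign by limma (pseudocounts 1 and 0.1) were Cnot10 (0.001 with both), Cnot7 (0.027, 0.029), Exosc2 (0.025, 0.028), Exosc8 (0.021, 0.022), Smg6 (0.029, 0.035) and Upf3a (0.042, 0.044). Those with the length offset were Edc4 (-0.075) and Upf3a (0.017). With 1 library left out the log2 fold change ran across 0 for Cnot6 (-0.237 to 0.017), Cnot7 (-0.106 to 0.009), Edc4 (-0.034 to 0.049), Xrn1 (-0.223 to 0.086), Smg6 (-0.095 to 0.041) and Upf3a (-0.103 to 0.005). It did so for Exosc10 (-0.002 to 0.091), Exosc2 (-0.132 to 0.035), Exosc4 (-0.003 to 0.090), Exosc5 (-0.020 to 0.116), Exosc7 (-0.066 to 0.112) and Exosc8 (-0.150 to 0.029). It also did so for Lsm11 (-0.027 to 0.095), Lsm4 (-0.180 to 0.007), Lsm5 (-0.018 to 0.108) and Lsm7 (-0.050 to 0.166). The cause of these changes was not tested. In simulated data with 3 libraries a group most changes of log2 0.5 were missed. Fewer genes changed there than were called here, so that share need not hold for the members.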
